A study of Rattus norvegicus with 24 samples.

Results

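The hair shaft keratins are the structural proteins that fill the growing hair fibre, and 10 of them were examined here: Krt31, Krt32, Krt35, Krt36 and Krt81 to Krt86. They were chosen by gene symbol, as every row of the table that carries 1 of these 10 symbols, which gave 10 of its 17711 rows. A row is 1 gene in 9 cases, and the remaining row joins Krt31 with Krt33a, Krt33b and Krt34 under a single value. RNA was sequenced from whisker follicles and striatum of 6 male Sprague-Dawley rats that self-administered methamphetamine (MA) and of 6 that self-administered saline (SA), so that each tissue has 12 libraries and the series 24. Presses of the active lever, except during a time-out, delivered intravenous infusions. These were of 0.05 mg/kg methamphetamine in MA rats and of saline in SA rats, in daily sessions of 2 h over 16 days. All rats were first trained to press the lever for food, those that did not learn were left out, and all underwent surgery. The sources give neither the age of the rats nor the part of the follicle that was collected. Values are FPKM as the authors deposited them, a unit that by its name divides fragments by transcript length and by mapped reads. Whether the libraries were scaled further is not given in the sources. Levels of different genes are compared here on that scale per length. The columns carry an index of 0 to 5 within each group with no stated link to a rat, so a library is named by it, as in SA library 0.

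Keratins form filaments from pairs of a type I and a type II chain, so a hair cell needs both. Krt31 to Krt36 are type I and Krt81 to Krt86 are type II. As cells leave the hair matrix at the base of the follicle they switch these genes on in sequence: Krt35 and Krt85 come early, Krt31, Krt36, Krt81, Krt83 and Krt86 mark the cortex, which is the bulk of the shaft, and Krt32 and Krt82 mark the cuticle around it. Krt84 is best known in humans from the filiform papillae of the tongue. Inherited changes in the genes for KRT81, KRT83 and KRT86 cause the beaded hair disorder monilethrix. The filaments are embedded in keratin-associated proteins, the Krtap family, and factors such as Lef1, Foxn1 and Hoxc13 control the genes in the matrix and cortex.

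In the GRCr8 rat assembly of RefSeq the type I members lie on chromosome 10, in the order Krt33a, Krt33b, Krt34, Krt31, Krt32, Krt35 and Krt36, and the type II members lie on chromosome 7, in the order Krt81, Krt86, Krt83, Krt85, Krt84 and Krt82. RefSeq also gives Krt83 as another name of the neighbouring gene Krt87, so the identity of the Krt83 row is not certain. Krt81, Krt83 and Krt86 on the one side, and Krt31, Krt33a, Krt33b and Krt34 on the other, are close copies. Reads shared between such copies may have been split or lost by the authors' quantification, so the levels of these rows are uncertain.

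Promoter sequence from RefSeq (GRCr8, while the FPKM values rest on rn6) was at hand for 7 of the 10 members, and 5 are shown because their genes differ most in the results that follow. Krt31 belongs to the joined row, Krt32 varied least, Krt36 and Krt84 shared their highest libraries, and Krt85 moved in step with Krt83. Each is the 250 bases before the annotated start, 5′ to 3′ on the minus strand, at chr10:85483301-85483550 for Krt31, chr10:85520979-85521228 for Krt32, chr10:85540404-85540653 for Krt36, chr7:134535609-134535858 for Krt84 and chr7:134515787-134516036 for Krt85. Capitals mark matches to TATAAA (the TATA box, on the gene's strand), to CTTTGA or CTTTGT (a Lef1 motif) and to TTTATN or TTAATN followed by a pair of purines (a Hoxc13 motif), the last 2 on either strand.
Krt31: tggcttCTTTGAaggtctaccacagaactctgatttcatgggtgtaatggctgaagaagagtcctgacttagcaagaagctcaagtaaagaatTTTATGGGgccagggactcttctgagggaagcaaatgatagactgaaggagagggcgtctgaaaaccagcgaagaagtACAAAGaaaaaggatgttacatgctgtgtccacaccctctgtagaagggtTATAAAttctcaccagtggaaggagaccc
Krt32: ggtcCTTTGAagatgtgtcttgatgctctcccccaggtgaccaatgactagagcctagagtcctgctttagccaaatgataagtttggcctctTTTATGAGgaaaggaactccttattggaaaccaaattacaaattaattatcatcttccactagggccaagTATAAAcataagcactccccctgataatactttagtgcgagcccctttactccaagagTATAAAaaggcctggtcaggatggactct
Krt36: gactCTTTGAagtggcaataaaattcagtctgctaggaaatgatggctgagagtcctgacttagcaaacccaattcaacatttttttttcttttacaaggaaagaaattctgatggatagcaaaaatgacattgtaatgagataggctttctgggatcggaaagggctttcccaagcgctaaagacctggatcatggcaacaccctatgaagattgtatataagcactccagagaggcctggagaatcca
Krt84: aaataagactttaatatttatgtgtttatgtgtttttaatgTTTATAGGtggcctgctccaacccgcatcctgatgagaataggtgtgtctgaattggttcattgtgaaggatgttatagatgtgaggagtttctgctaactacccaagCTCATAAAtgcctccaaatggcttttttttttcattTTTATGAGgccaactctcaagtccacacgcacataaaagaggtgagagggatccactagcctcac
Krt85: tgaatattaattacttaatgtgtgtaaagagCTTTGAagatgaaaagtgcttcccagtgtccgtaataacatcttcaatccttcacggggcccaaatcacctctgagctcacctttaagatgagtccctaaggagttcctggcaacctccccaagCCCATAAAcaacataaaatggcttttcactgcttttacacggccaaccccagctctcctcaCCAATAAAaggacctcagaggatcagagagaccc

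In the windows of 300 bases around the start (250 before and 50 after), 6 of 7 members held the Hoxc13 motif, against 19.7% of all 33469 promoters. The Lef1 motif was found in 5 of 7 members and in 31.4% of all promoters, and TATAAA in 3 of 7 members and in 8.80% of all. A TATAAA within 40 to 19 bases before the start, where a TATA box lies, was found in Krt31 and Krt32 and in 1.25% of all promoters. Krt34, which shares the joined row with Krt31, held 1 there too. Krt36 had no match to the Hoxc13 motif, Krt84 none to the Lef1 motif, and Krt31, Krt32, Krt35 and Krt85 held both. These matches are letters in a window and were not tested as binding sites.

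The hair keratins were far higher in the whisker follicle than in the striatum, and some were among its most abundant RNAs. Rows of this comparison needed a mean FPKM of at least 1 over the 24 libraries, which the 9 single rows reached only through the whisker follicle. All 10 rows were higher in SA whisker follicle than in SA striatum by limma, where 32.0% of the 10985 rows tested were. For the single rows this was largely set in advance by that filter and by the choice of hair genes, so it is given as a description. The log2 fold changes of the 9 single rows ranged from 5.92 for Krt84 to 13.3 for Krt86 on the log2(FPKM + 1) scale. The largest adjusted p of limma among these 9 rows was 3.17e-08, for Krt84. In the mean of the 6 SA whisker follicle libraries the joined row ranked 9th of all rows, Krt86 11th and Krt81 20th. In the mean of the MA libraries Krt86 ranked 4th and Krt81 12th. Of the 9 single rows, Krt36, Krt84 and Krt82 were the least abundant in SA, at ranks 290, 497 and 1030. In MA the least abundant were Krt32, Krt84 and Krt82, at ranks 132, 159 and 536, and Krt36 ranked 123rd.

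1 whisker follicle library stood apart from its group, and it touches most results on these genes. SA library 0 had the highest FPKM of all 12 whisker follicle libraries for Krt82, Krt83 and Krt85, the second highest for Krt84 and Krt86, and the lowest for Krt32. For 8 of the 9 single rows, all but Krt32, its value lay within or above the range of the MA libraries. The joined row was at 0 in it as in the MA libraries, but that was known when the rows were chosen, so nothing is read from it. Whether SA library 0 carries the right label was not tested, since no column is tied to a rat. Its 10 most abundant rows held 44.0% of its FPKM sum, above the 27.1% to 41.6% of the other 11 libraries. The low values of the table rise in steps that give a rough total relative to SA library 0. It ranged from 0.724 to 1.51 over the whisker follicle libraries, with SA library 0 at neither end. The scaling of libraries is not given, so whether this total is the sequencing depth was not tested. The table holds no read counts, and the counting error behind a value is not known. Tests of MA against SA are therefore given with all 12 libraries and again without SA library 0. It was singled out by the values of these same genes, so the p-values without it depend on that choice and are given as a description.

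With all 12 libraries, no hair keratin passed the test between MA and SA whisker follicles, and neither did any other of the 9138 rows tested (0% higher and 0% lower at an adjusted p under 0.05 with a fold of at least 1.5, limma). The means of all 9 single rows were nonetheless higher in MA on the log2(FPKM + 1) scale, as were 48.3% of all rows. Their median log2 fold change was 1.33, and 1.04 with the joined row, against -0.01 over all rows tested. At an unadjusted p under 0.05, 5 of the 9 single rows were higher in MA (Krt36, Krt82, Krt83, Krt84 and Krt85), where 5.25% of all rows (480) were. Of all rows, 5.18% (473) were lower at that level. The joined row was among them, but its zeros were known when the rows were chosen, so nothing is read from it.

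Without SA library 0, Krt36, Krt82, Krt83, Krt84 and Krt85 were called higher in MA, and 7.40% of all rows were. Of all rows, 5.94% were called lower, and the joined row among them restates its zeros and is no test. Krt32, Krt35, Krt81 and Krt86 did not pass the test in this set of libraries. All 9 single rows had higher means in MA, as did 48.2% of all rows, and their median log2 fold change was 1.77. In bulk RNA, a larger share of shaft-forming cells and more RNA per such cell cannot be told apart.

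**Figure D1:**
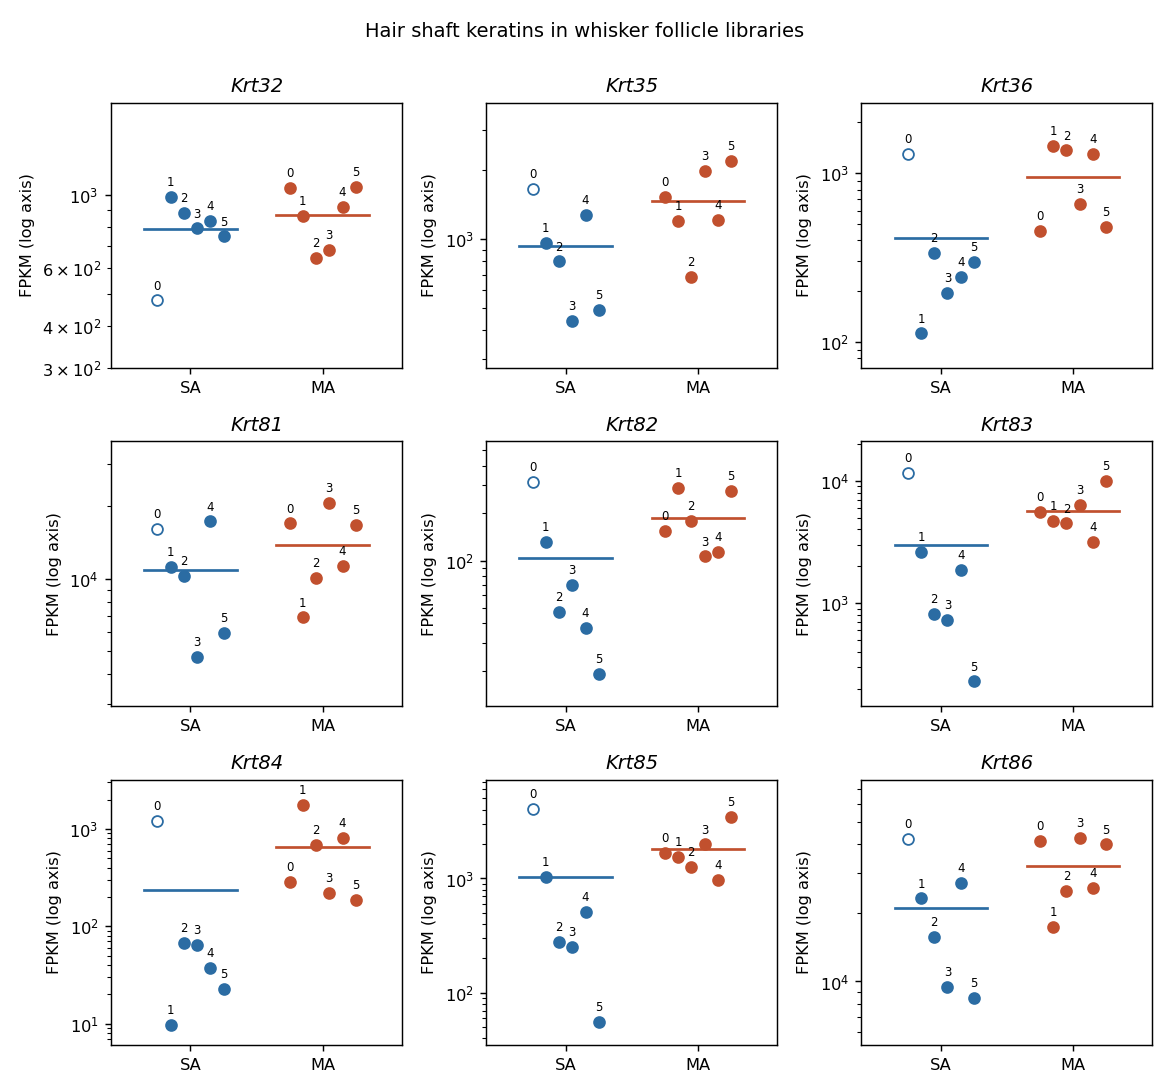
FPKM (log axis) of the 9 single hair keratin rows in the 12 whisker follicle libraries, with SA in blue, MA in orange, the library index beside each point, SA library 0 as an open circle and the group mean as a line. For Krt36, Krt83 and Krt84 every MA library lies above SA libraries 1 to 5, while SA library 0 lies among or above the MA libraries.

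The early keratins were Krt85 and Krt35. Krt85, the type II chain that first appears in the matrix and precortex, was at 4035, 1038, 277, 254, 514 and 56.2 FPKM in SA libraries 0 to 5. In MA libraries 0 to 5 it was at 1668, 1546, 1266, 1987, 973 and 3474. Apart from SA library 0, the single SA library that reached the MA range was SA library 1, which exceeded MA library 4. The SA mean was 1029 ± 1511 and the MA mean 1819 ± 881 (SD over the 6 libraries of a group, as in all values given with ±). The log2 fold change of Krt85 was 1.88 (standard error 0.78, adjusted p = 0.465), and 2.51 (standard error 0.59, adjusted p = 0.0208) without SA library 0.

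Krt35, an early type I chain, moved over a narrower range. It was at 1654, 961, 799, 438, 1277 and 492 FPKM in SA libraries 0 to 5 and at 1524, 1205, 683, 1985, 1215 and 2188 in MA libraries 0 to 5. The groups overlapped, with MA library 2 below SA libraries 0, 1, 2 and 4. Its log2 fold change of 0.71 (standard error 0.36, adjusted p = 0.465) became 0.90 (adjusted p = 0.0667) without SA library 0, so Krt35 did not pass in either set.

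Among the cortex keratins, Krt86 and Krt81 were the most abundant, and neither passed the test in either set of libraries. Krt86 was at 42178, 23108, 15669, 9499, 27051 and 8437 FPKM in SA libraries 0 to 5 and at 41411, 17403, 24894, 42431, 25588 and 39869 in MA libraries 0 to 5. Krt81 was at 16048, 11183, 10233, 4703, 17301 and 5958 in SA and, in the same order, at 16975, 6895, 10028, 20681, 11250 and 16699 in MA. Both groups overlapped broadly for both genes, and SA libraries 3 and 5 were the lowest for each. The log2 fold changes were 0.76 (standard error 0.43, adjusted p = 0.466) for Krt86 and 0.39 (standard error 0.39, adjusted p = 0.617) for Krt81. Without SA library 0 they were 1.01 (adjusted p = 0.0739) and 0.53 (adjusted p = 0.313).

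Krt83, the third of the close type II copies, showed a wider range. SA libraries 0 to 5 held 11633, 2616, 820, 729, 1876 and 230 FPKM, and MA libraries 0 to 5 held 5529, 4658, 4474, 6389, 3161 and 9890. Every MA library lay above SA libraries 1 to 5, while SA library 0 lay above every MA library. Krt83 had a log2 fold change of 1.92 (standard error 0.73, adjusted p = 0.465), or 2.53 (standard error 0.52, adjusted p = 0.0189) without SA library 0.

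Krt36, a type I chain of the cortex, was at 1300 FPKM in SA library 0 and at 112, 336, 195, 242 and 297 in SA libraries 1 to 5. In MA libraries 0 to 5 it was at 454, 1450, 1363, 659, 1301 and 482. MA libraries 1, 2 and 4 and SA library 0 formed the upper end, and MA libraries 0, 3 and 5 lay between them and the other SA libraries. Krt36 averaged 236 ± 87.7 over SA libraries 1 to 5 (n = 5) against 952 ± 468 in MA. Its log2 fold change of 1.51 (standard error 0.51, adjusted p = 0.465) became 1.93 (standard error 0.37, adjusted p = 0.0173) without SA library 0.

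The largest difference among the 9 single rows was that of Krt84. It was at 1212 FPKM in SA library 0 and at 9.73, 67.9, 64.3, 37.4 and 22.6 in SA libraries 1 to 5, and at 285, 1767, 683, 220, 811 and 187 in MA libraries 0 to 5. The lowest MA library thus held more than the highest of SA libraries 1 to 5, and SA library 0 held more than every MA library but MA library 1. The mean of SA libraries 1 to 5 was 40.4 ± 25.5 (n = 5) and that of MA was 659 ± 601. For Krt84 limma gave a log2 fold change of 2.96 (standard error 0.95, adjusted p = 0.465), and 3.82 (standard error 0.62, adjusted p = 0.0137) without SA library 0. A value of 3.82 on the log2 scale is a 14.1-fold difference in FPKM + 1.

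The cuticle keratins Krt82 and Krt32 differed from each other. Krt82, the type II chain of the cuticle, was at 317, 131, 47.0, 70.2, 37.5 and 19.0 FPKM in SA libraries 0 to 5 and at 154, 290, 179, 106, 113 and 276 in MA libraries 0 to 5. MA libraries 3 and 4 lay below SA library 1, and all other MA libraries lay above SA libraries 1 to 5. Krt82 had a log2 fold change of 1.33 (standard error 0.55, adjusted p = 0.465), and 1.77 (standard error 0.42, adjusted p = 0.0214) without SA library 0.

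Krt32, the type I chain of the cuticle, was the steadiest of the hair keratins. It was at 479, 989, 884, 791, 833 and 749 FPKM in SA libraries 0 to 5 and at 1051, 863, 645, 682, 918 and 1055 in MA libraries 0 to 5. The groups overlapped throughout, and SA library 0 was the lowest of the 12. Krt32 averaged 788 ± 172 in SA against 869 ± 176 in MA, and limma gave a log2 fold change of 0.15 (standard error 0.20, adjusted p = 0.707), or 0.01 without SA library 0.

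**Figure D2:**
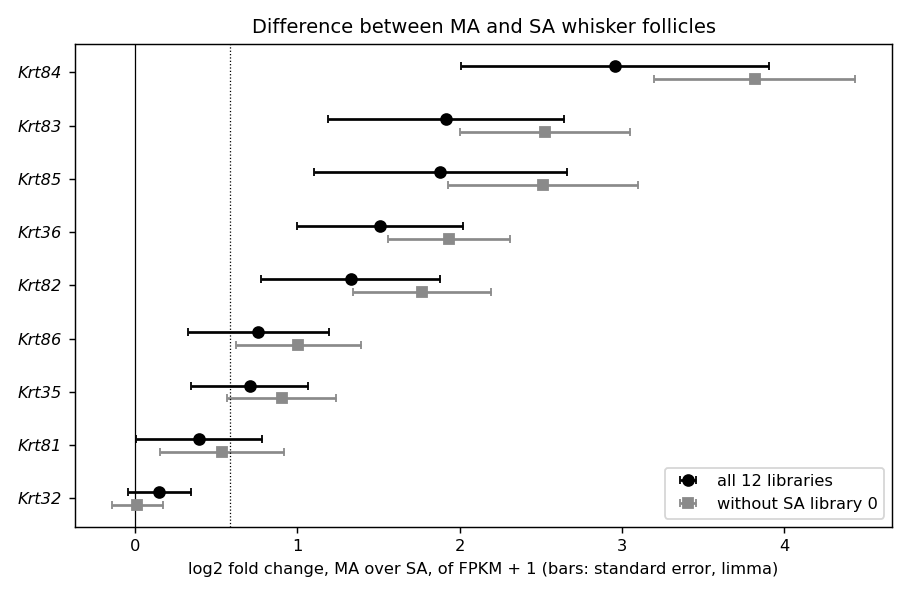
Log2 fold change (MA over SA, of FPKM + 1) of the 9 single hair keratin rows, with standard errors from limma, for all 12 whisker follicle libraries (black) and without SA library 0 (grey). The dotted line marks a fold of 1.5, and leaving out SA library 0 moved Krt84 from 2.96 to 3.82 and Krt32 from 0.15 to 0.01.

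The joined row of Krt31, Krt33a, Krt33b and Krt34 was unlike the others. Its value was 0 in SA library 0 and in each of the 6 MA libraries. In SA libraries 1 to 5 it held 40110, 23145, 14868, 41216 and 10773 FPKM, which made it 1 of the most abundant rows there. Of the 186 rows above 1000 FPKM in some whisker follicle library, it was the single one that was also listed at 0 in another. A 0 can be a failed estimate of the quantification, which was not tested, and no fold is given for this row.

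**Figure D3:**
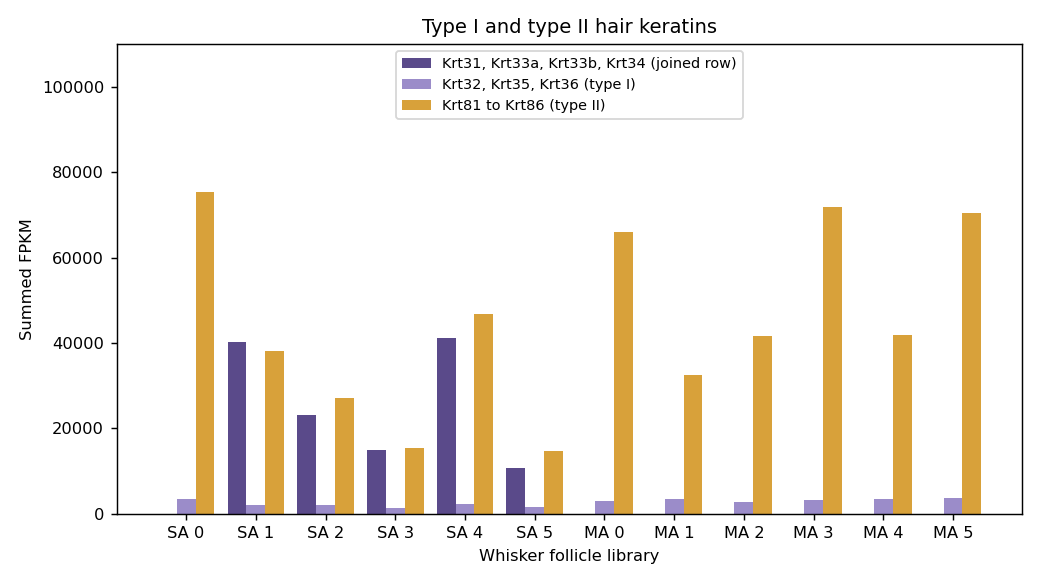
Summed FPKM in each whisker follicle library of the joined row (dark violet), of the other type I members Krt32, Krt35 and Krt36 (light violet) and of the type II members Krt81 to Krt86 (yellow). The joined row stands beside the type II sum in SA libraries 1 to 5 and is at 0 in the other 7 libraries, where the type II sum remains between 32560 and 75424 FPKM.

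The sums of the 2 types turn on the joined row, and where it is listed at 0 they are given as listed, without a reading of the 0 as a true level. In SA libraries 1 to 5, the type I members with the joined row summed to 0.836 to 1.11 times the type II members in FPKM. Whether such sums measure the balance of the chains was not tested. In the other 7 libraries, with the joined row at 0, the ratio was 0.0455 to 0.108. Without the joined row it was 0.0502 to 0.104 in SA libraries 1 to 5, so the remaining type I members held a like share of the type II sum in all 12 libraries. The type II sum itself was 75424 FPKM in SA library 0, 14723 to 46817 in SA libraries 1 to 5 and 32560 to 71816 in MA. In SA libraries 1 to 5, where it was listed above 0, the joined row was 1.28 to 1.74 times Krt86.

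In every whisker follicle library the levels of the 9 single rows began with Krt86, then Krt81. Krt83 came next in 9 of the 12 libraries, and Krt32 in SA libraries 2, 3 and 5. Krt85 lay below Krt83 in all 12. Krt86 and Krt81 together held 67.3% to 90.2% of the sum of the 9 single rows. Below them the order differed between libraries. Krt83 had a mean of 2984 ± 4325 FPKM in SA, with a spread that took in the genes next to it, and of 5684 ± 2328 in MA. In the SA means, Krt85 at 1029 ± 1511, Krt35 at 937 ± 468 and Krt32 at 788 ± 172 FPKM were neighbours whose differences were smaller than their spread, and so were Krt36 at 414 ± 441, Krt84 at 236 ± 479 and Krt82 at 104 ± 112. In the MA means, Krt85 at 1819 ± 881, Krt35 at 1467 ± 555, Krt36 at 952 ± 468, Krt32 at 869 ± 176 and Krt84 at 659 ± 601 likewise followed each other within their spread, and Krt82 at 186 ± 79.7 was lowest. The 9 single rows took 4.15% to 6.43% of a library's FPKM sum in MA, 1.19% to 3.33% in SA libraries 1 to 5 and 7.56% in SA library 0.

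The members differed widely in how much they varied over the 12 whisker follicle libraries. The highest library held 2.2 times the lowest for Krt32, 4.40 times for Krt81, 5.00 for Krt35 and 5.03 for Krt86. The ratio was 12.9 for Krt36, 16.7 for Krt82, 50.7 for Krt83, 71.7 for Krt85 and 182 for Krt84. None of the 9 rows had every MA library above every SA library, which 0.197% of all rows did, nor every MA library below every SA library, which 0.285% did. Against SA libraries 1 to 5 alone, 3 of them did (Krt36, Krt83 and Krt84), as did 2.72% of all rows. Of all rows, 4.52% had every MA library below SA libraries 1 to 5. The joined row was 1 of these by its zeros, from which nothing is read.

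Some pairs of hair keratins varied together across libraries while others did not. The ratio of Krt85 to Krt83 stayed between 0.245 and 0.397 over the 12 libraries, although each gene varied more than Krt32, Krt35 and Krt36. The same libraries were the highest 4 for both, in the order SA library 0, MA library 5, MA library 3 and MA library 0. This set was not particular to the pair, since it was also the highest 4 for Krt35 and for Krt86, in other orders. Krt36 and Krt84 shared another set of the highest 4, MA libraries 1, 2 and 4 and SA library 0. Krt36 is type I and Krt84 type II, and they lie on different chromosomes. The ratio of Krt84 to Krt36 was not fixed, at 0.0762 to 0.330 in SA libraries 1 to 5, 0.933 in SA library 0 and 0.334 to 1.22 in MA. As a description over the 12 libraries, which share their tissue and treatment groups, Pearson's correlation of log2(FPKM + 1) was 0.995 for Krt83 with Krt85 and 0.953 for Krt36 with Krt84. For Krt32 with the other 8 rows it lay between -0.43 and 0.09. For the remaining pairs it lay between 0.158, for Krt36 with Krt81, and 0.929, for Krt81 with Krt86.

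**Figure D4:**
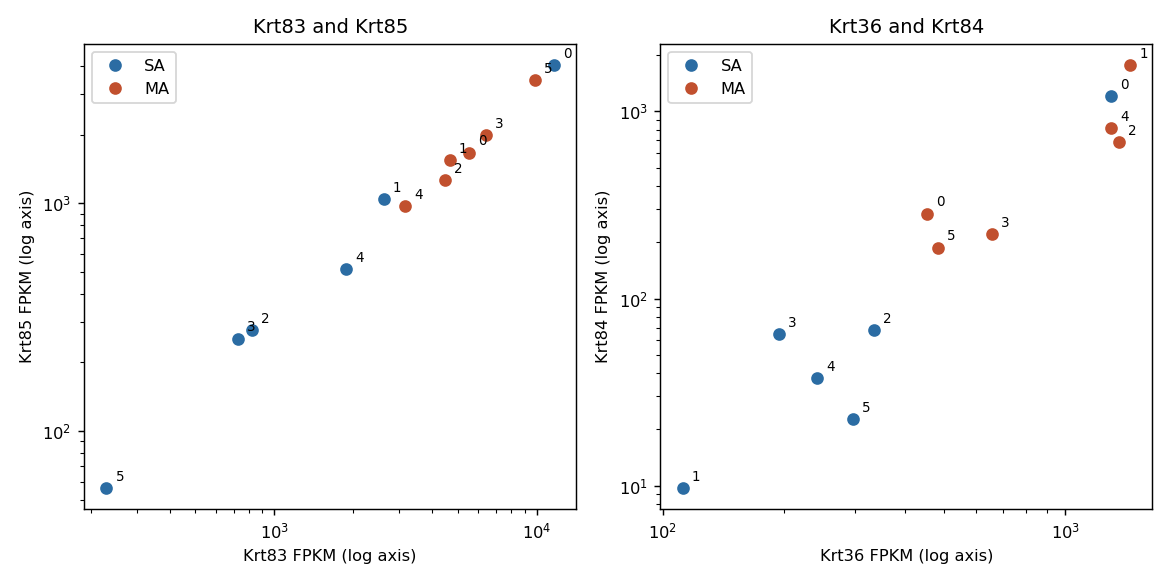
FPKM (both axes log) of Krt85 against Krt83 and of Krt84 against Krt36 in the 12 whisker follicle libraries, with SA in blue, MA in orange and the library index beside each point. The points of the first pair lie along a line, with a ratio of 0.245 to 0.397, and in the second pair MA libraries 1, 2 and 4 and SA library 0 stand together at the upper end.

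The proportion of the close type II copies within a library differed as well. Krt81 was 0.484 to 0.706 times Krt86 in SA libraries 1 to 5 and 0.396 to 0.487 times in MA, and 0.380 times in SA library 0. The ranges of SA libraries 1 to 5 and of MA met only at their ends. Krt83 was 0.0272 to 0.113 times Krt86 in SA libraries 1 to 5, 0.124 to 0.268 times in MA and 0.276 times in SA library 0. These ratios do not depend on the scaling between libraries, but reads exchanged between the copies could move them, which was not tested.

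Of the other hair keratins, Krt39 and Krt40 had a row of their own. Krt39, a type I keratin of the upper cortex and cuticle, was at 425 FPKM in SA library 0, at 6.75 to 51.1 in SA libraries 1 to 5 and at 42.6 to 129 in MA. Krt39 had a log2 fold change of 1.39 (standard error 0.78, adjusted p = 0.466), and 2.14 (adjusted p = 0.0192) without SA library 0. Krt40, a type I keratin of the cuticle, was at 322 in SA library 0, at 82.4 to 364 in SA libraries 1 to 5 and at 231 to 338 in MA, and Krt40 had a log2 fold change of 0.66 (standard error 0.30, adjusted p = 0.465), or 0.82 (adjusted p = 0.0564) without SA library 0.

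The proteins that surround and control the hair keratins were examined by list, and no row of any list was called with all 12 libraries. Of the keratin-associated proteins, 8 of 8 rows were above 0, against 48.3% of all rows, with a median log2 fold change of 0.63 (0.82 without SA library 0). Krtap7-1, with an SA mean of 124619 ± 54492 FPKM and an MA mean of 139954 ± 56959, and Krtap15-1, with means of 55233 ± 24899 and 63401 ± 22489, exceeded every hair keratin in their means. Without SA library 0, 1 of the 8 was called higher, where 7.40% of all rows were. Of the hair matrix transcription factors and signals, 12 of 15 rows tested were above 0, against 48.3% of all rows, with a median of 0.45. At an unadjusted p under 0.05, 6 of the 15 were higher, where 5.25% of all rows were. Without SA library 0 the median was 0.50 and 7 of these 15 rows were called higher, against 7.40% of all rows. Ctnnb1, the beta-catenin that acts with Lef1, averaged 150 ± 128 FPKM over SA and 265 ± 68.0 over MA libraries, and Dlx3, a homeodomain factor of the hair matrix, averaged 207 ± 109 and 235 ± 65.7. Msx2 and Ovol1 of the same list had log2 fold changes of 0.31 and -0.07. Among other hair shaft proteins, 8 of 13 rows were above 0 (median 0.24), where 48.3% of all rows were. Without SA library 0 the median was 0.26 and 2 of the 13 were called higher, against 7.40% of all rows. S100a3, a calcium-binding protein of the hair cuticle, averaged 28539 ± 7576 over SA and 19932 ± 2754 over MA libraries, with SA library 0 the lowest of the 12 at 14450, which is the opposite order to that of most hair keratins. Vsig8, Gprc5d and Jup of the same list went the other way, with log2 fold changes of 0.26, 0.27 and 0.24.

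The 6 rows outside the list whose log2(FPKM + 1) followed the mean of the standardised hair keratin rows most closely over the 12 whisker follicle libraries were Krtap1-5, Dusp8, Fyn, Ror2, Rab3gap2 and Abhd5. Their Pearson correlations were 0.951 to 0.970, given as a description. Krtap1-5, a keratin-associated protein, was at 37244 FPKM in SA library 0, 262 to 5187 in SA libraries 1 to 5 and 6440 to 18501 in MA. Fyn, a Src-family kinase, was at 325 in SA library 0, 38.2 to 147 in SA libraries 1 to 5 and 136 to 247 in MA.

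Markers of the other parts of the follicle did not all follow the hair keratins, and their part in the differences was not tested. The counts of rows above 0 stand against 48.3% of all rows. Of the inner root sheath list, 4 of 7 rows were above 0 (median 0.06, or 0.02 without SA library 0). Without SA library 0, 1 of the 7 was called higher, against 7.40% of all rows. The summed FPKM of the list was 18558 in SA library 0, 26371 to 34260 in SA libraries 1 to 5 and 14242 to 27080 in MA. Of the outer root sheath and epidermis list, 6 of 10 rows were above 0 (median 0.09) and 3 were higher at an unadjusted p under 0.05, against 5.25% of all rows. Its sums were 32962, 38917 to 71593 and 30916 to 58582 in the same order. Without SA library 0 its median was 0.22 and 3 of the 10 rows were called higher, against 7.40% of all rows. The inner root sheath sum was thus lower in SA library 0 than in the other SA libraries, as the type II hair keratin sum was higher. The sebaceous gland list had 2 of 5 rows above 0 (median -0.13, or -0.35 without SA library 0), with sums of 220, 295 to 444 and 259 to 355. Without SA library 0, 1 of its 5 rows was called higher and 1 lower, against 7.40% and 5.94% of all rows. Melanocyte genes had 5 of 5 above 0 (median 0.36, or 0.58 without SA library 0), with sums of 75.8, 19.8 to 39.2 and 25.6 to 69.5. Fibroblast and matrix genes had 5 of 5 above 0 (median 0.41, or 0.46 without SA library 0), with sums of 143, 68.6 to 157 and 93.2 to 238, and Col1a2 and Lum were at 0 throughout.

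Cell cycle genes had 5 of 6 rows above 0, against 48.3% of all rows (median 0.21, or 0.20 without SA library 0). Their sums were 70.3 in SA library 0, 66.4 to 81.2 in SA libraries 1 to 5 and 62.9 to 96.8 in MA. Skeletal muscle genes had 1 of 6 above 0 (median -0.21, or -0.31 without SA library 0), with sums of 9.05, 10.6 to 21.0 and 10.8 to 14.7. Blood and macrophage genes had 2 of 4 above 0 (median -0.01, or -0.07 without SA library 0), with sums of 8.63, 45.2 to 184 and 8.58 to 165. The dermal papilla and endothelial lists had 1 row tested each, Crabp1 (log2 fold change 0.18, or 0.16 without SA library 0) and Egfl7 (0.14, or -0.01), and Rspo3, Alx4 and Cdh5 were at 0 throughout. Of the striatal neuron genes, Ppp1r1b was the single row tested (-0.39, or -0.50 without SA library 0). Of the melanocyte, fibroblast, cell cycle, muscle, blood, dermal papilla, endothelial and striatal neuron lists, no row was called in either set of libraries.

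In the striatum, a tissue without hair, the hair keratins were near 0 in 11 of the 12 libraries and higher in 1. The 10 rows summed to 37.5 FPKM in striatum SA library 2 and to 0.922 to 3.91 in the other 11 libraries. The joined row made 17.7 of this sum, Krt86 10.6, Krt81 5.14 and Krt83 2.2. Within striatum SA library 2, the joined row was 1.66 times Krt86 and Krt81 was 0.484 times Krt86, and both values lie within the ranges of whisker follicle SA libraries 1 to 5. Krt83 was 0.207 times and Krt85 0.101 times Krt86 there, above the 0.0272 to 0.113 and 0.00667 to 0.0449 of those libraries. Keratin-associated proteins summed to 86.7 FPKM in it and to 0.680 to 9.36 in the others. Its striatal neuron markers summed to 4711 FPKM, within the 2753 to 6142 of the other libraries. How hair keratin RNA came to be in this library was not tested. The joined row was above 0 in all 12 striatum libraries, at 0.235 to 2.13 FPKM in the 11 others, while 7 of the 12 whisker follicle libraries had it at 0. Without striatum SA library 2, all 10 rows were again called higher in the whisker follicle, as were 3497 of the 10985 rows tested. For the single rows the filter on rows likewise largely set this in advance.

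**Figure D5:**
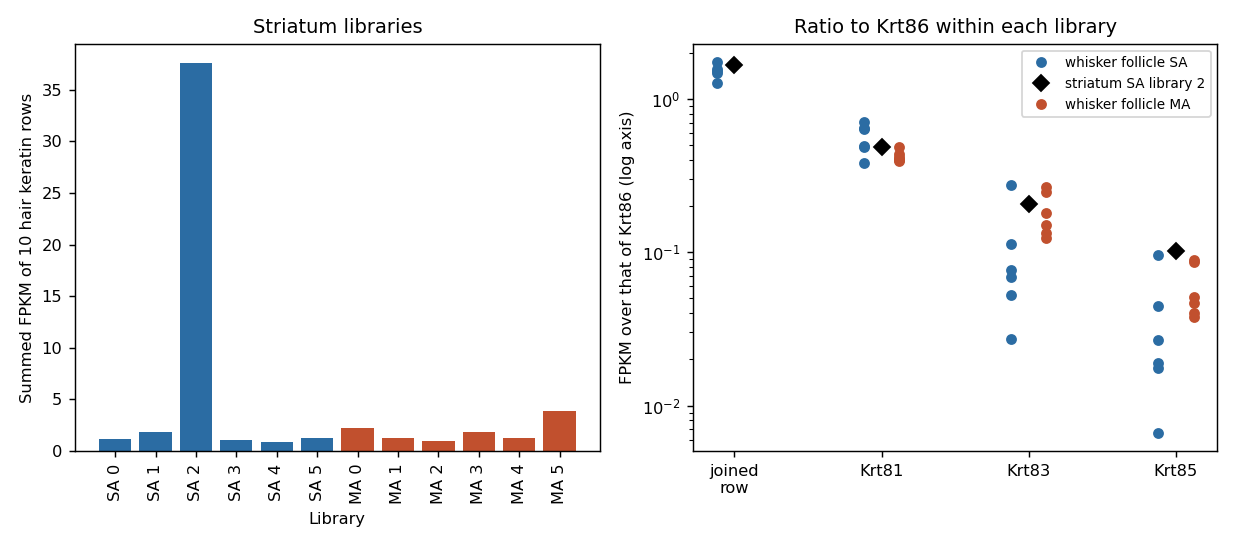
Left, summed FPKM of the 10 hair keratin rows in each striatum library (SA blue, MA orange), which is 37.5 in SA library 2 and at most 3.91 in the others. Right, FPKM of 4 rows over that of Krt86 within a library (log axis), for whisker follicle libraries (dots; those with the joined row at 0 have no dot for it) and striatum SA library 2 (diamonds), whose joined row is 1.66 times Krt86.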

How the data were processed

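Whisker follicle and striatum RNA of 6 MA and 6 SA rats was sequenced from poly(A)-selected libraries (24 in all). The authors deposited FPKM values in a single table of 17711 rows. The aligner is TopHat2 (rn6), after Cutadapt and before Cufflinks, in the paper, but STAR 2.6.0c, with bcl2fastq, Cufflinks 2.2.1 and rn6, in the notes of the submitters. Annotation and scaling of libraries: not given in the sources used here. Of the table's symbols, 97.9% were found in RefSeq, as were those of all 10 member rows. The table holds no read counts, so errors are the spread over the 6 libraries of a group.

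MA and SA whisker follicles were compared with limma (version 3.58.1 under R 4.3.3, moderated by an intensity trend, two-sided) on log2(FPKM + 1), a scale that understates the change of low rows. Rows needed a mean FPKM of at least 1 over the 12 libraries (9138 rows), p-values were adjusted over all of them by Benjamini-Hochberg, and a row was called if the adjusted p was under 0.05 and the fold 1.5 or more. Tissues were compared in 1 fit over 24 libraries, without pairing, on rows with a mean FPKM of at least 1 over the 24 (10985 rows). The study's Cuffdiff test needs reads and was not used. With it the paper did report genes that differed between MA and SA whisker follicles. The absence of calls with all 12 libraries holds for the limma test used here.

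The members and gene lists were chosen with earlier results of these data known. Named rows are the members, other hair keratins with a row of their own, up to 4 rows of the highest mean FPKM in each list, the 6 rows most like the members, and any row at 0 in 1 whisker follicle library and above 1000 FPKM in another. The alternatives tried were pseudocounts of 0.1 and 0.5, a filter at a mean of 5 or none, quantile or common-median scaling, no trend, weighted libraries, a 24-library fit, other call rules, leaving out each library, and leaving out the joined row. The tissue comparison without striatum SA library 2 was added after seeing the data. Promoters and gene order are RefSeq's (GRCr8), and no rn6 coordinate was used.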

Additional observations from a re-analysis of the deposited data

Results flagged for a closer look

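Values were looked at again where the highest or lowest library of a group of 6 stood off by more than Dixon's critical value (gap to the nearest library over the whole range). Groups with no library at 1 FPKM or above were not tested, and every flagged striatum group entered only through its flagged value. Of 30 groups tested among the hair keratins, 11 stood off, a count not set against chance because the same libraries serve all members. In the whisker follicle all were SA library 0: Krt36 at 1300 FPKM (others 112 to 336), Krt83 at 11633 (230 to 2616), Krt84 at 1212 (9.73 to 67.9), Krt85 at 4035 (56.2 to 1038) and Krt39 at 425 (6.75 to 51.1). In the striatum SA library 2 stood off for the joined row of Krt31, Krt33a, Krt33b and Krt34 at 17.7 FPKM (others 0.272 to 0.674), Krt86 at 10.6 (0.0992 to 0.438), Krt81 at 5.14 (0 to 0.203), Krt83 at 2.2 (0 to 0.104) and Krt85 at 1.08 (0.162 to 0.237). Striatum MA library 0 stood off for Krt36 alone, at 1.09 FPKM against 0 to 0.279.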

How the results depend on the processing

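The result that no row was called between MA and SA whisker follicles depends on SA library 0 and on the fit used. Leaving out 1 library at a time gave 0 to 1219 called rows and 0 to 6 hair keratin rows, and every fit but that without SA library 0 gave 0 of both. Weighted libraries gave 1160 rows and 8 hair keratin rows (7 higher, all single rows but Krt32 and Krt81, and the joined row lower). One fit over 24 libraries, which kept SA library 0, gave 15 rows and 1 hair keratin row, the joined row. An unadjusted p with the fold gave 336 rows and 6 hair keratin rows. The median log2 fold change of the 10 hair keratin rows was 0.76 to 1.39 over the fits that left out a library. None of the 9 single rows changed direction under any alternative run. All 10 rows stayed higher in whisker follicle than in striatum, where the alternatives called 3497 to 4527 of the 10985 rows tested higher. Calls of the joined row restate its zeros. The causes were not tested. No paired analysis was possible because the columns carry no rat numbers. FPKM without counts limits what can be said of low rows.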
